A study of Mus musculus with 6 samples.

Results

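The genes of the nuclear lamina and of the high mobility group (HMG) chromatin proteins were examined in primary mouse adult fibroblasts (MAFs). Control cells were compared with separate samples of cells made senescent. The members were the rows of the deposited gene count table named Lmnb1, Lmnb2, Lmna, Lbr, Tmpo, Emd, Hmgb1, Hmgb2, Hmga1 and Hmga2, which are 10 of the 43346 rows in the table. Each name matched 1 row, and all 10 passed the filter on low counts that left 17589 genes for testing. MAFs were grown from the ears of adult female C57BL/6 mice, kept at 3% oxygen and used between passages 3 and 8. Control cells (3 libraries) were sham irradiated. Senescent cells (3 libraries) received 20 Gy of X-rays, and the study's methods give 21 further days in culture for such cells. Both groups were given 100 nM dexamethasone, a glucocorticoid that synchronises the circadian clock, for 2 hours and were harvested 12 hours later, so the exposure to dexamethasone is shared and every value below belongs to 1 time after it. Poly(A) RNA was sequenced as paired reads of 100 bases, and the study asked how gene expression differs between senescent and control cells.

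The lamina is a meshwork of intermediate filament proteins that lines the inner face of the nuclear membrane. Lamin B1 and lamin B2 stay attached to the membrane through a lipid anchor, while the Lmna gene encodes lamin A and lamin C, and the lamin B receptor, the lamina-associated polypeptides of Tmpo and emerin tie the lamina and chromatin to the inner membrane. The HMG proteins bind DNA with little preference for sequence: HMGB1 and HMGB2 bend it, and the HMGA proteins hold to AT-rich DNA and have been described in the condensed chromatin of senescent cells, where loss of lamin B1 is a widely used marker.

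The 6 libraries held between 50288454 and 82229553 counts. The senescent libraries carried more RNA of the cell cycle inhibitor Cdkn1a, with a log2 fold change of 2.33, and less of the proliferation marker Mki67, with a log2 fold change of -5.94. All 8 fibroblast markers were detected, with a summed level of 15400 to 17300 CPM, counts scaled by library size, in control and 6660 to 7620 CPM in senescent libraries. Of these 5 were lower, among them Col1a1 and Col1a2, and 3 were higher, namely Dcn, Thy1 and Lum. Of 8 chondrocyte markers all 8 were lower in senescent cells, and their sum ran from 6820 to 7310 CPM in control libraries and from 611 to 693 CPM in senescent libraries. Markers of other cell types were scarce. Those of keratinocytes summed to 16.4 to 17 CPM in control and 9.5 to 9.93 CPM in senescent libraries, with Trp63 lower and Cdh1 higher. For leukocytes (8.08 to 8.79 against 14.1 to 16.9 CPM) and endothelium (2.53 to 2.93 against 8.03 to 8.45 CPM) the 5 tested markers of each were all called higher. Skeletal muscle markers summed to 15.5 to 20.9 against 15 to 27.7 CPM, and those of Schwann cells or melanocytes to 9.24 to 10.8 against 11.1 to 12.4 CPM. Myod1 and Sox10 were at 0 counts in every control library. Senescent replicates 1 to 3 held 6, 3 and 10 counts of Myod1 and 20, 34 and 8 of Sox10. The part of these cell types in the results below was not tested. Senescent replicate 3 stood apart from the other senescent libraries, at distances of 38.2 and 40.8 between log2 CPM profiles where the remaining pairs of replicates lay 18.3 to 23.1 apart, so results that turn on it are also given without it.

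Sequence around the start site is shown for the 4 members with a CHR or E2F motif there, as these letters mark many genes of dividing cells. RefSeq (GRCm38.p6) windows of 300 bases, from 250 before to 50 after a start site, were found for 9 of the 10 members and not for Lmnb1. The windows are printed 5′ to 3′ on the gene's own strand, with capitals marking the CHR motif TTTGAA, the CCAAT box CCAAT and the E2F core GGCGGGAA on either strand. The CHR and CCAAT box are letters found in front of many genes of late cell cycle, and E2F factors act in the entry into DNA synthesis.
Hmgb2, chr8:57511593-57511892, plus strand: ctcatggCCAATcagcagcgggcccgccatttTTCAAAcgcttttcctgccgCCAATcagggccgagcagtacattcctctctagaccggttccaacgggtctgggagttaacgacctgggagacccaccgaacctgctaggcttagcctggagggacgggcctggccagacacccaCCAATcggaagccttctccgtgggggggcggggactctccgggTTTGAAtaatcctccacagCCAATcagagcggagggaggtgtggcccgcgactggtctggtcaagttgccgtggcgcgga
Lbr, chr1:181842352-181842651, minus strand: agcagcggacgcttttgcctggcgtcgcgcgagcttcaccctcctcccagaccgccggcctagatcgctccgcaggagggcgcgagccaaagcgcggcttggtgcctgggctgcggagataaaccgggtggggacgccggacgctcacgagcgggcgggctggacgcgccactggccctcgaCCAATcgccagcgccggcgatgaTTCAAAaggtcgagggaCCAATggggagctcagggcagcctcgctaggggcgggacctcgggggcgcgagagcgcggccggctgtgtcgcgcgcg
Tmpo, chr10:91170501-91170800, minus strand: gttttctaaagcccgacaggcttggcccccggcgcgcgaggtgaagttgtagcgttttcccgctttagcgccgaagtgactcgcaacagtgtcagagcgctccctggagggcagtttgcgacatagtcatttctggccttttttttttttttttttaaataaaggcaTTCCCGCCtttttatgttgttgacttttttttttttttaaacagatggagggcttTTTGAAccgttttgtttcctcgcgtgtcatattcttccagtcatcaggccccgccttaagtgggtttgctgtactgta
Hmga2, chr10:120476420-120476719, minus strand: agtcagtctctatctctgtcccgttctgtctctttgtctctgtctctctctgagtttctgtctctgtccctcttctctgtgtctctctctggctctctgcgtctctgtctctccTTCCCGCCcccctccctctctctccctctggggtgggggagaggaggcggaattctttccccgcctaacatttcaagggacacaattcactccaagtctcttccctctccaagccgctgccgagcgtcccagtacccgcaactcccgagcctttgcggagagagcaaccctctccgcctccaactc

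The CHR letters occurred in windows of Hmgb2, Lbr and Tmpo, in 3 of the 14 windows of the members, and in 17.9% of the 32851 mouse windows of that length. In Hmgb2 a CHR began 30 bases and a CCAAT box 73 bases before the start site, and in Lbr the distances were 45 and 68 bases. These were picked from several matches: Hmgb2 held a further CHR and further CCAAT boxes, and Lbr a further CCAAT box, all in capitals above. The second window of Tmpo held a CHR 28 bases and an E2F core 83 bases before its start. CCAAT was found in 6 of the 14 windows, 1 each of Emd, Hmgb1, Hmgb2, Lbr, Lmna and Tmpo, and in 37.4% of all windows. Several members have more than 1 window, and with so few windows these counts are not set apart from the background. The E2F core was in windows of Hmga2 and Tmpo and in 2.19% of all windows, an E-box (CACGTG) in Hmgb1 and in 7.15%, and the AP-1 motif (TGACTCA) in Lmna and in 5.2%. Each match is a description of these letters and not a measured binding site.

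A second set of sequences concerns the 3′ untranslated region of Hmga2, whose mRNA is a known target of the microRNA let-7. The microRNA itself was not measured here. Its mature form mmu-let-7a-5p from RefSeq is printed with the seed, bases 2 to 8, in capitals, above the 4 places in Hmga2 (build GRCm38, minus strand, GENCODE vM21) that hold the 7 letters complementary to the seed, CTACCTC, also in capitals.
let-7a: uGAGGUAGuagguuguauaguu
Site A, chr10:120364224-120364246: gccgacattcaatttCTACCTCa
Site B, chr10:120362987-120363009: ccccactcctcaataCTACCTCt
Site C, chr10:120362549-120362571: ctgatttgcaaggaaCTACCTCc
Site D, chr10:120361691-120361713: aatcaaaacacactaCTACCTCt

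The longest 3′ untranslated region annotated for Hmga2 spans 3014 bases, and the matches begin at its bases 58, 1295, 1733 and 2591. Of 2438 genes with a 3′ untranslated region of like length (80 to 125% of it), Hmga2 among them, 16% held any match. At least 4 matches were held by 3 of these genes, or 0.123%, with Hmga2 counted as 1 of the 3. Lbr, Tmpo and Hmga1 held 1 match each in their longest 3′ untranslated region, and the remaining 6 members held 0.

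Of the 10 members, 8 were lower and 2 were higher in senescent than in control cells at an adjusted p under 0.05. The strongest losses were those of Hmgb2 and Lmnb1, and the gains were those of the paired HMGA genes, Hmga2 and Hmga1. Over all 17589 genes tested, 34.1% were called lower and 36.2% higher by the same rule, so a call alone does not set a member apart and the size of each difference is given with it. By the rule in the study's methods, an unadjusted p under 0.05 with a fold over 2 (its results name another p cutoff), 12.3% of all genes were lower and 17.8% higher. That rule called 6 members lower and 2 higher and left out Lmna and Emd. In every member the control and senescent values did not overlap. Across all genes 37% showed such a gap with senescent cells lower and 38.4% with senescent cells higher. The median log2 fold change (senescent over control) was -1.29 over the 10 members and 0.01 over all genes tested. Levels are CPM scaled by the trimmed mean of M values (TMM), given as mean ± SD, and tests are edgeR's two-sided quasi-likelihood test with Benjamini-Hochberg adjustment over all 17589 genes. In bulk RNA, fewer cells of a type and less RNA per cell cannot be told apart.

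**Figure D1:**
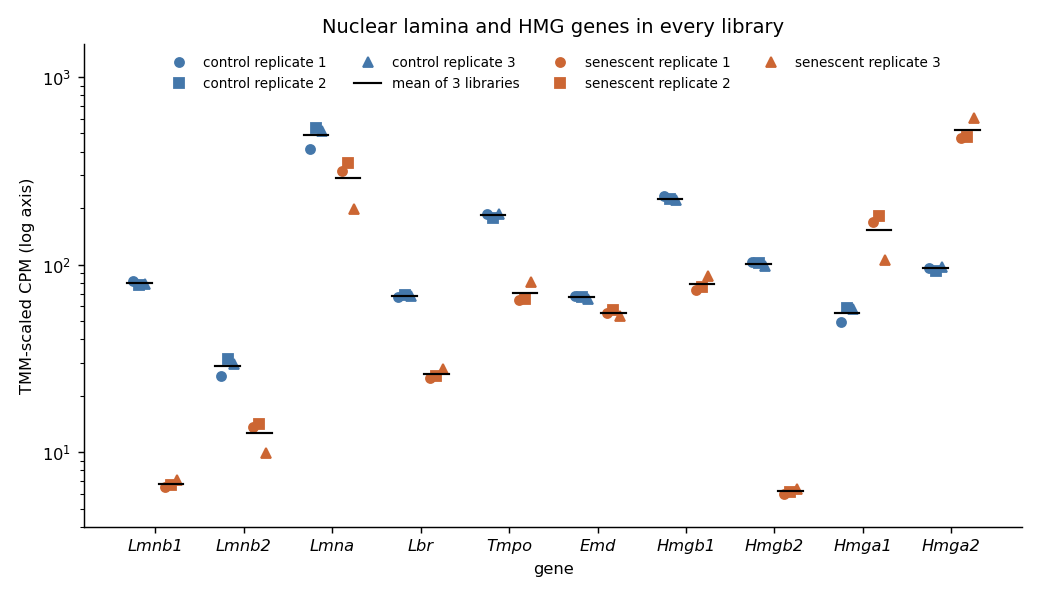
Level of each member (TMM-scaled CPM, log axis) in the 3 control and 3 senescent libraries, with bars at the mean of each group. Lmnb1 falls from about 79.4 to 6.76 CPM and Hmgb2 from 101 to 6.18 CPM, Hmga1 and Hmga2 rise, and senescent replicate 3 (orange triangles) sits apart for Lmna, Lmnb2 and Hmga1.

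Lmnb1 (ENSMUSG00000024590, chr18:56707813-56753424, plus strand) encodes lamin B1, the B-type lamin whose loss is used as a marker of senescence. Its level was 81.5, 78 and 78.7 CPM in control replicates 1 to 3 and 6.55, 6.65 and 7.09 CPM in the senescent replicates. The libraries of each group lay close together and the groups were far apart. The mean fell from 79.4 ± 1.85 to 6.76 ± 0.285 CPM (n = 3 each), which is 11.7-fold lower (log2 fold change -3.55, SE 0.07, adjusted p = 1.25e-08 by edgeR). Only 1.25% of tested genes had a lower log2 fold change. Its raw counts in the senescent libraries were 363, 527 and 598.

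Lmnb2 (ENSMUSG00000062075, chr10:80901203-80918245, minus strand), the gene of lamin B2, was the lowest of the lamins in control cells. Control replicates 1 to 3 held 25.6, 31.4 and 29.5 CPM, and the senescent replicates 13.7, 14.2 and 9.86 CPM. Senescent replicate 3 was the lowest of the 6 libraries. The mean fell from 28.9 ± 2.99 to 12.6 ± 2.38 CPM, 2.3-fold lower (log2 fold change -1.20, SE 0.15, adjusted p = 0.000189 by edgeR). Without senescent replicate 3 the log2 fold change was -1.04.

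Lmna (ENSMUSG00000028063, chr3:88481148-88509956, minus strand) encodes the A-type lamins, which the gene-level counts do not separate into lamin A and lamin C. Control replicates 1 to 3 held 413, 535 and 517 CPM, and the senescent replicates 317, 350 and 199 CPM. The spread within each group was wide, and senescent replicate 3 was again the lowest. The mean went from 488 ± 65.9 to 289 ± 79.2 CPM, 1.69-fold lower (log2 fold change -0.76, SE 0.20, adjusted p = 0.00999 by edgeR). With no filter on low counts the adjusted p was 0.0715 by edgeR, and no other member lost its call by adjusted p under an alternative. Over the 14 alternatives in scaling, filter, test, block, GC trend and left-out library its adjusted p ran from 0.000259 to 0.0715 and its log2 fold change from -0.91 to -0.54, the smaller change being that without senescent replicate 3.

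The composition of the lamin RNA therefore shifted toward Lmna. Per length, Lmna made up 77.2 ± 2.49% of the lamin RNA in control and 92.6 ± 1.49% in senescent libraries. The share of Lmnb1 was 21.1, 16.5 and 17.1% in control and 2.76, 2.56 and 4.64% in senescent libraries. That of Lmnb2 was 4.54 ± 0.0842% and 4.08 ± 0.352%. Its groups overlapped, with a range of 4.44 to 4.6% in control and of 3.77 to 4.46% in senescent libraries. The overlap came from senescent replicate 3 alone, at 4.46% beside 4 and 3.77% in senescent replicates 1 and 2. Within a library the log2 ratio of Lmnb1 to Lmna counts differed by -2.76 ± 0.39 between the groups, and that of Lmnb1 to Lmnb2 by -2.34 ± 0.28 (the error is the pooled SD, n = 3 each). The log2 ratio of Lmnb2 to Lmna differed by -0.42 ± 0.11. All 3 ratios were lower in every senescent library than in every control library, and each gave p = 0.1 in an exact two-sided permutation test, the smallest p that 3 against 3 samples allow (adjusted p = 0.117 over the 7 ratios tested).

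**Figure D2:**
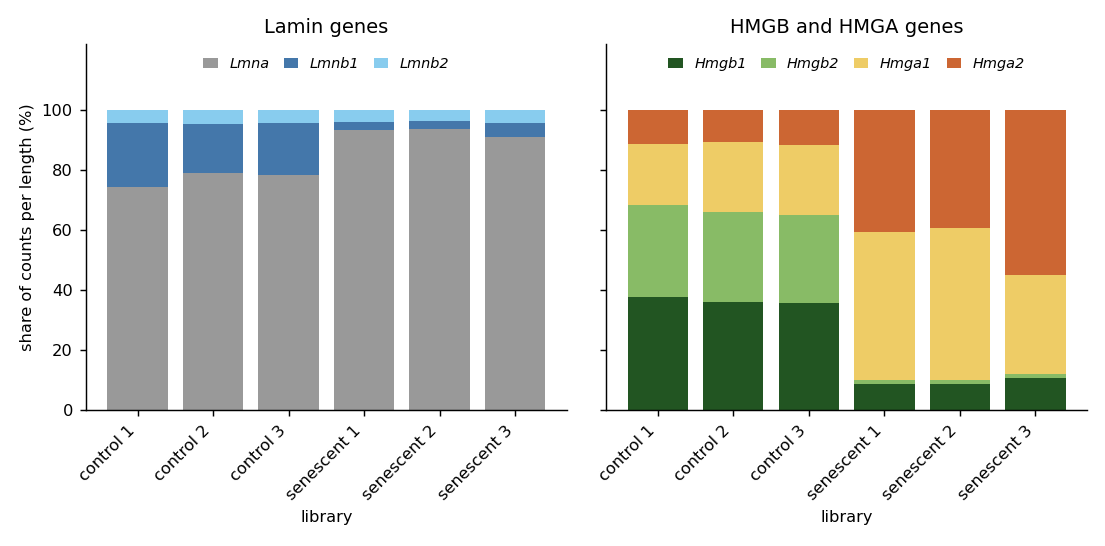
Share of each gene in the summed counts per length (%) of the 3 lamin genes (left) and of the 4 HMGB and HMGA genes (right) in each library. Lmnb1 shrinks from 18.2 to 3.32% of the lamin RNA on average, and Hmgb1 and Hmgb2 give way to Hmga1 and Hmga2.

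The genes of the proteins that connect the lamina with the inner membrane were lower in RNA as well, by different amounts. Lbr (ENSMUSG00000004880, chr1:181815335-181843046, minus strand) encodes the lamin B receptor, which binds B-type lamins and heterochromatin and is also a sterol reductase. Its level was 67.3, 68.8 and 67.6 CPM in control and 25, 25.5 and 27.6 CPM in senescent libraries. All libraries of a group were within a few CPM of each other. The mean fell from 67.9 ± 0.764 to 26 ± 1.37 CPM, 2.61-fold lower (log2 fold change -1.38, SE 0.06, adjusted p = 5.45e-07 by edgeR).

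Tmpo (ENSMUSG00000019961, chr10:91147571-91171582, minus strand) encodes the lamina-associated polypeptides 2, also called thymopoietins, of which some forms span the inner membrane and the alpha form is soluble in the nucleus. Gene-level counts join these forms. The control replicates held 187, 177 and 186 CPM and the senescent replicates 65.1, 65.5 and 81.1 CPM. Here senescent replicate 3 was the highest of its group but stayed far below the controls. The mean went from 183 ± 5.7 to 70.6 ± 9.1 CPM, 2.6-fold lower (log2 fold change -1.38, SE 0.09, adjusted p = 6.16e-06 by edgeR).

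Emd (ENSMUSG00000001964, chrX:74254687-74261548, plus strand) encodes emerin, a small inner membrane protein that binds lamins and, like Tmpo products, carries a LEM domain. It changed least of the 10 members. An overlapping pseudogene on the same strand, Gm14686, held 49 to 129 counts per library beside 3059 to 4536 for Emd. Its level was 67.6, 67.1 and 65.7 CPM in control and 55.2, 57.2 and 52.9 CPM in senescent libraries, which left a narrow gap between the groups. The mean was 66.8 ± 0.963 and 55.1 ± 2.18 CPM, 1.21-fold lower (log2 fold change -0.28, SE 0.06, adjusted p = 0.0025 by edgeR), and 35.7% of tested genes had a lower log2 fold change. After the trend with GC content was removed from each library, an alternative chosen after seeing the data, the log2 fold change was -0.15 with an adjusted p of 0.0048 by edgeR.

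The log2 ratio of Tmpo to Emd counts was 1.46 ± 0.05 in control and 0.35 ± 0.23 in senescent libraries, with no overlap (difference -1.11, exact permutation p = 0.1, adjusted p = 0.117). The log2 ratio of Lbr to Lmna was -2.84 ± 0.19 and -3.43 ± 0.50. That pair overlapped, because senescent replicate 3 stood at -2.85 beside -3.67 and -3.78 in the other senescent libraries (difference -0.59, exact permutation p = 0.3). Without that library the difference was -0.88. The overlap of the groups for Lbr to Lmna thus came from that 1 library, while for Tmpo to Emd the groups did not overlap with it included.

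**Figure D3:**
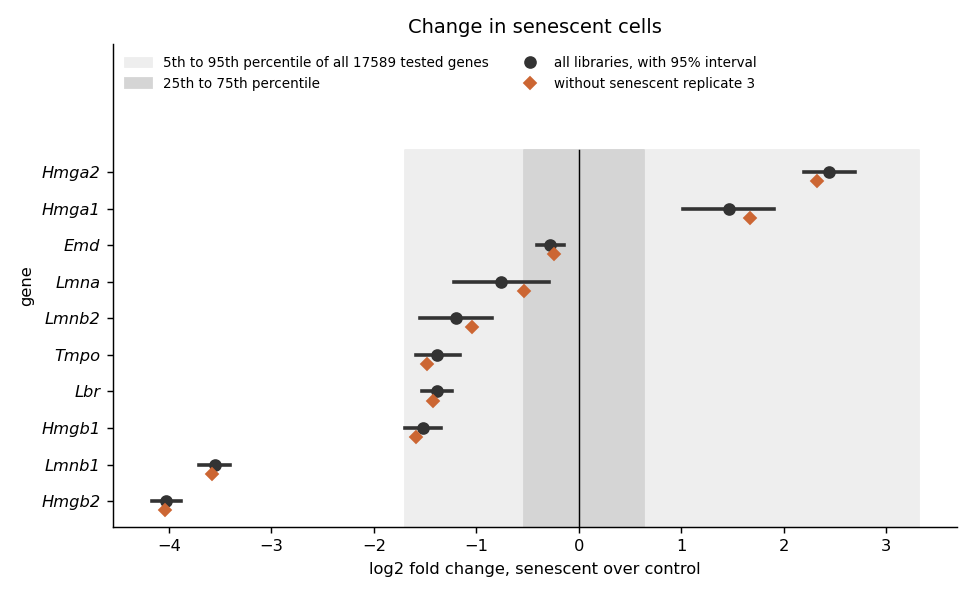
Log2 fold change (senescent over control) of the 10 members with 95% confidence intervals, and the value without senescent replicate 3 as diamonds. The grey bands give the 25th to 75th percentile (-0.54 to 0.63) and the 5th to 95th percentile (-1.70 to 3.32) of all tested genes: Hmgb2 and Lmnb1 lie below the outer band and Hmga2 and Hmga1 above the inner band.

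Among the HMG genes, both HMGB genes fell. Hmgb1 (ENSMUSG00000066551, chr5:149046702-149053513, minus strand) encodes an abundant DNA-bending protein that also acts as an alarm signal once it leaves the cell. Its level was 231, 223 and 221 CPM in control and 72.8, 75.9 and 86.4 CPM in senescent libraries. The highest senescent library was far below the lowest control. The mean fell from 225 ± 5.3 to 78.4 ± 7.15 CPM, 2.87-fold lower (log2 fold change -1.52, SE 0.08, adjusted p = 1.08e-06 by edgeR). The 11 rows named as copies of Hmgb1, whose likeness in sequence was not checked, summed to 35 to 76 counts per library. This was 0.443 to 1.04% of the Hmgb1 count, so reads placed on them were few.

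Hmgb2 (ENSMUSG00000054717, chr8:57511843-57515999, plus strand), a close relative of Hmgb1 that is abundant in dividing cells, changed most of all members. Control replicates held 103, 102 and 98.5 CPM, and senescent replicates 6.01, 6.16 and 6.36 CPM. Neither group varied much. The mean went from 101 ± 2.14 to 6.18 ± 0.178 CPM, 16.3-fold lower (log2 fold change -4.03, SE 0.06, adjusted p = 9.57e-09 by edgeR), and 0.841% of tested genes had a lower log2 fold change. The log2 ratio of Hmgb2 to Hmgb1 counts was -1.16 ± 0.02 in control and -3.66 ± 0.09 in senescent libraries, a difference of -2.50 (exact permutation p = 0.1, adjusted p = 0.117). Per length, Hmgb1 RNA exceeded that of Hmgb2 by 1.21-fold in control and by 6.89-fold in senescent cells.

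The HMGA genes moved the other way. Hmga2 (ENSMUSG00000056758, chr10:120361275-120476469, minus strand) encodes an AT-hook protein that is abundant in embryonic cells and some tumours and usually low in adult tissue. Its level was 96.3, 92.6 and 97.3 CPM in control and 471, 478 and 607 CPM in senescent libraries. Senescent replicate 3 was the highest, and every senescent library was far above the controls. The mean rose from 95.4 ± 2.49 to 519 ± 76.6 CPM, 5.44-fold higher (log2 fold change 2.44, SE 0.11, adjusted p = 5.15e-07 by edgeR). Of tested genes 92.4% had a lower log2 fold change, which also says that a gain of this size was shared by many genes.

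Hmga1 (ENSMUSG00000046711, chr17:27556620-27563674, plus strand) encodes the other AT-hook protein of the family. The control replicates held 49.5, 58.4 and 57.9 CPM and the senescent replicates 169, 181 and 106 CPM. Senescent replicate 3 was the lowest of its group, the reverse of its place for Hmga2. The mean rose from 55.2 ± 4.98 to 152 ± 40.4 CPM, 2.75-fold higher (log2 fold change 1.46, SE 0.19, adjusted p = 0.000243 by edgeR), and without that library the log2 fold change was 1.67. AI413582, a gene overlapping Hmga1 on the opposite strand, held 296, 501 and 397 counts in control and 771, 1110 and 779 in senescent libraries, against 2469 to 3488 and 8939 to 14357 counts of Hmga1. Whether the counting used strand is not given in the sources used here.

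The log2 ratio of Hmga2 to Hmga1 counts was 0.79 ± 0.15 in control and 1.80 ± 0.62 in senescent libraries, a difference of 1.01 (exact permutation p = 0.1, adjusted p = 0.117). That size rested in part on senescent replicate 3, at 2.52 beside 1.48 and 1.40, and the difference was 0.65 without it. Of the summed RNA per length of the 4 HMGB and HMGA genes, Hmgb1 held 36.5 ± 1.07% in control and 9.3 ± 1.25% in senescent libraries, and Hmgb2 held 30 ± 0.711% and 1.34 ± 0.0953%. Hmga1 went from 22.2 ± 1.87 to 44.3 ± 10.1% and Hmga2 from 11.3 ± 0.366 to 45 ± 8.75%. In senescent replicates 1 to 3 the share of Hmga1 was 49.5, 50.8 and 32.7%, and that of Hmga2 was 40.6, 39.4 and 55.1%. The near-equal senescent means thus rested on replicate 3, the only senescent library in which Hmga2 held the larger share. The HMGB genes thus held most of this RNA in control cells and the HMGA genes most of it in senescent cells.

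Levels per length (RPKM, from the gene lengths in the deposited table) put the members in a different order in each group. In control cells Lmna led at 115 ± 15.5 RPKM, followed by Hmgb1 at 45.5 ± 1.07 and Hmgb2 at 37.5 ± 0.794 RPKM. Tmpo (28.3), Hmga1 (27.8), Lmnb1 (26.8) and Emd (26.5 RPKM) came next, and each overlapped its neighbour over the 3 libraries. Lbr (14.3) and Hmga2 (14.1 RPKM) overlapped too, and Lmnb2 was last at 6.73 ± 0.698 RPKM. In senescent cells Hmga2 (76.6 ± 11.3), Hmga1 (76.4 ± 20.3) and Lmna (67.9 ± 18.6 RPKM) stood at the top with overlapping ranges. Below them came Emd at 21.9, Hmgb1 at 15.9, Tmpo at 10.9 and Lbr at 5.47 RPKM, each clear of its neighbours. Lmnb2 (2.94), Hmgb2 (2.29) and Lmnb1 (2.28 RPKM) closed the order, and Lmnb2 overlapped Hmgb2 as Hmgb2 did Lmnb1. Hmgb2 and Lmnb1 had thus moved from the upper and middle of the order to its end, and Hmga2 from the ninth place into the leading group, whose own order the overlap does not settle.

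Senescent replicate 3 differed from its group by member, and the GC content of each is given beside the value. The log2 level in that library over the mean of senescent replicates 1 and 2 was -0.72 for Hmga1 (61.4% GC), -0.48 for Lmnb2 (57.6% GC) and -0.74 for Lmna (53.1% GC). It was 0.35 for Hmga2 (45.7% GC), 0.31 for Tmpo (45.2% GC) and 0.22 for Hmgb1 (40.1% GC). Lmnb1 (0.10, 53.3% GC), Emd (-0.09, 53.4% GC), Lbr (0.13, 44.2% GC) and Hmgb2 (0.06, 38.7% GC) lay near 0. Over all tested genes the median was -0.45 in the 10% with the highest GC and 0.29 in the 10% with the lowest GC. With the GC trend removed all 8 members stayed lower and both HMGA genes higher, with log2 fold changes of -0.66 for Lmna, -0.97 for Lmnb2, 1.74 for Hmga1 and 2.35 for Hmga2. The part of GC content in the differences between these libraries was not tested beyond that.

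**Figure D4:**
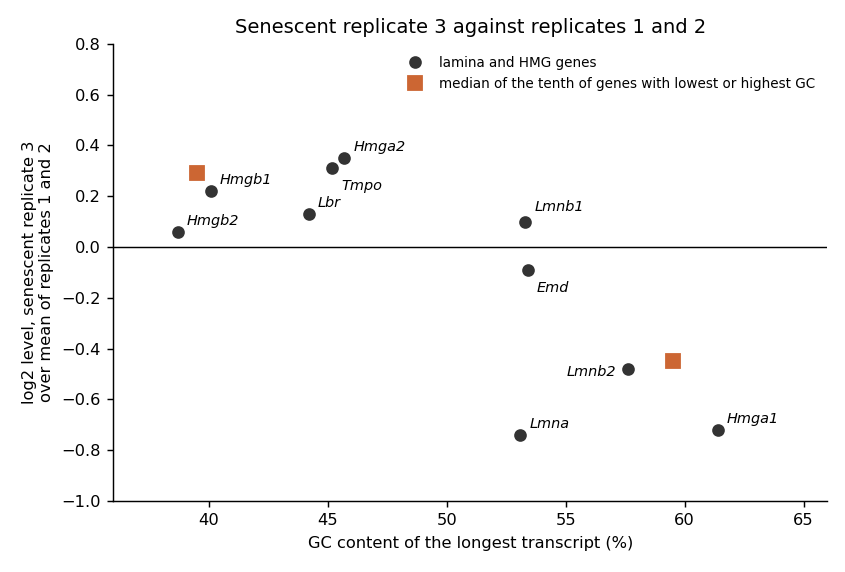
Log2 level in senescent replicate 3 over the mean of senescent replicates 1 and 2 (y axis) against GC content of the longest transcript in % (x axis), for the 10 members and, as squares, the medians of the 10% of tested genes with the lowest and the highest GC. Hmga1, Lmna and Lmnb2 are lowest, at -0.72, -0.74 and -0.48, and Hmga2 and Tmpo highest, at 0.35 and 0.31.

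Genes that work with the lamina were called in both directions. Of 16 genes of nuclear membrane and lamina-binding proteins 7 were lower and 1 was higher (median log2 fold change -0.06). Over all genes tested 34.1% were lower and 36.2% higher (median 0.01), so a call alone does not set a listed gene apart. Syne2, a nesprin of the outer membrane, had a log2 fold change of -2.63 (168 ± 3.33 against 27.1 ± 0.65 CPM), and Syne3, another nesprin, one of -1.77. Nrm, the gene of the membrane protein nurim, went from 18.3 ± 0.858 to 1.77 ± 0.226 CPM (log2 fold change -3.38, adjusted p = 1.35e-07 by edgeR). Ankle2, a LEM protein like emerin, was the gene called higher, at 0.28.

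Of 6 genes of prelamin A processing enzymes and partners 3 were lower and 2 higher (median -0.24). The shares over all genes tested were 34.1% and 36.2%. Zmpste24, the protease that cuts prelamin A, rose from 107 ± 3.42 to 134 ± 12.2 CPM (log2 fold change 0.32, adjusted p = 0.00551 by edgeR), and Icmt, which methylates its tail, from 78.3 ± 0.904 to 111 ± 10.9 CPM (0.51). Narf, a prelamin-binding protein, fell with a log2 fold change of -1.35, the endoprotease Rce1 with -0.65 and the farnesyltransferase subunit Fntb with -0.33. The substrate Lmna was itself lower, so the direction was not the same along this pathway.

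Among 30 genes of nuclear pore proteins 15 were lower and 7 higher (median -0.21), beside 34.1% and 36.2% of all genes tested. Ordered by p, Nup85 (-1.33), Nup107 (-1.18) and Nup133 (-0.77) came first among the lower calls, and Rae1 (0.56), Ranbp2 (0.50) and Seh1l (0.43) among the higher ones. Over the whole list the log2 fold changes ran from -1.77 to 0.56.

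The remaining HMG genes mostly followed Hmgb1 and Hmgb2 rather than the HMGA genes. Of 10 listed, 9 were tested, 6 were lower and 1 was higher (median -0.52), beside 34.1% and 36.2% of all genes tested. Hmgn2, a nucleosome-binding HMG protein, fell from 116 ± 14.3 to 17.2 ± 2.18 CPM (log2 fold change -2.75) and Hmgb3, the third HMGB gene, from 18.7 ± 0.852 to 3.36 ± 0.102 CPM (-2.48). Hmgxb4 had a log2 fold change of -0.64, and Hmgxb3 was higher at 0.46. Hmgb4 had 0 counts in all 6 libraries.

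Of 21 genes of heterochromatin proteins 17 were lower and 0 higher (median -0.61), beside 34.1% and 36.2% of all genes tested. The histone chaperone Asf1b (-4.27) and Uhrf1 (-4.04), which reads hemimethylated DNA during replication, had log2 fold changes near that of Hmgb2, and the linker histone gene H1f0 had -1.38. All 20 cell cycle genes listed were lower, with a median of -4.22, and those with the smallest p were Ccnb2 (-5.48), Ccnb1 (-5.18) and Bub1b (-5.10). Lmnb1 and Hmgb2, at -3.55 and -4.03, lay inside the range of those cell cycle genes (-6.00 to -1.29). Lbr (-1.38), Tmpo (-1.38) and Hmgb1 (-1.52) lay only at its weak end, between Pcna (-1.29) and Rrm2 (-1.71). Lmnb2, Lmna and Emd lay above the range.

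Of 12 genes of regulators of let-7 or of HMGA2 RNA 10 were tested, 4 were lower and 2 higher (median -0.10). Of all genes tested 34.1% were lower and 36.2% higher. Lin28a, a blocker of let-7 maturation, had 0 counts throughout, and Lin28b had 0 counts in each control library and 6, 1 and 8 counts in senescent replicates 1, 2 and 3. Igf2bp3, an RNA-binding protein of the family that binds HMGA2 mRNA, rose from 0.633 ± 0.132 to 3.94 ± 0.243 CPM (log2 fold change 2.63, adjusted p = 3.44e-06 by edgeR), a fold near that of Hmga2 from a much lower level. Its relative Igf2bp2 fell from 56.4 ± 0.39 to 36.7 ± 0.423 CPM (-0.62). Ago2, which carries microRNAs, was higher at 0.53, and Dicer1 and Tut4 were lower at -0.30 and -0.35.

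Of 4 genes of receptors for extracellular HMGB1, 2 were higher and 0 lower (median 0.75), beside 36.2% and 34.1% of all genes tested. Cxcr4 rose from 0.0697 ± 0.0311 to 2.50 ± 0.0635 CPM (log2 fold change 5.13) and Tlr4 from 33.6 ± 1.22 to 84.4 ± 13.3 CPM (1.33). Tlr2 (0.17) and Ager (-0.83) did not pass the test. Release of the protein HMGB1 was not measured.

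**Figure D5:**
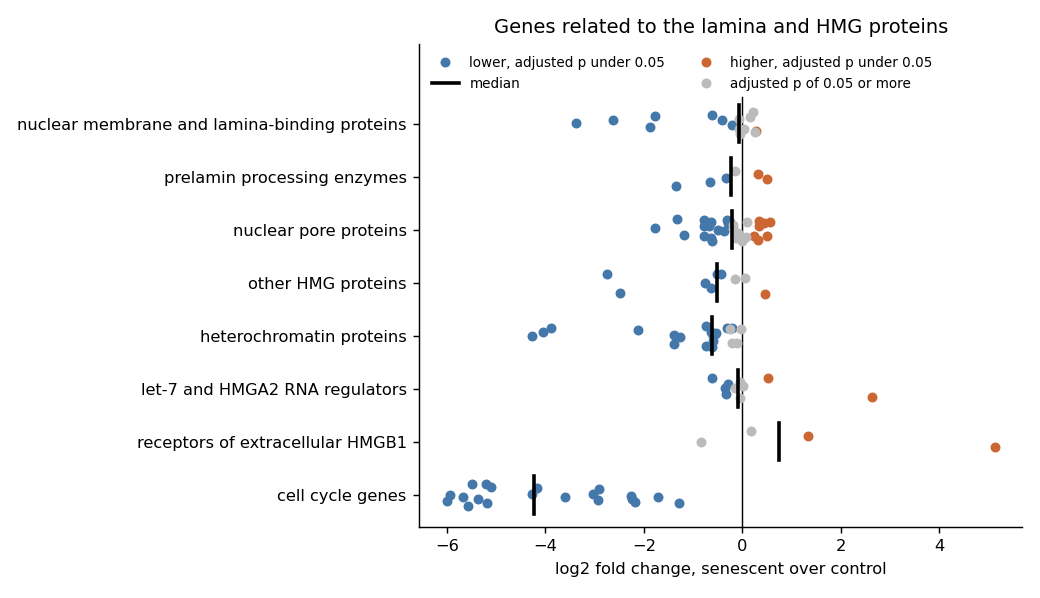
Log2 fold change (senescent over control) of each tested gene in the 8 lists of related genes, with the median of each list as a black bar and colours for the call at an adjusted p under 0.05. All 20 cell cycle genes and 17 of 21 heterochromatin genes are lower, and the lamina, pore and HMG lists hold calls in both directions. Over all genes tested 34.1% are lower and 36.2% higher by that rule.

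The genes whose profiles over the 6 libraries were most like those of 4 members were found by the Euclidean distance between centred profiles of log2(CPM + 0.5), on which a distance of 0 is an identical shape. The added 0.5 CPM shrinks the changes of low genes, so the fitted log2 fold change is given with each. For Lmnb1 they were Tacc3 (distance 0.0977, log2 fold change -3.49), Oip5 (0.127, -4.61) and Cdk1 (0.129, -3.60). Asf1b (distance 0.124, log2 fold change -4.27), Racgap1 (0.131, -3.98) and Snx22 (0.146, -4.88) were nearest to Hmgb2. For Hmga2 the list was Gm12603 (distance 0.0988, log2 fold change 2.56), Pdk4 (0.143, 2.52) and Serpinb10 (0.155, 6.66), the last of which rose from 0.0203 to 2.1 CPM and is near Hmga2 on this scale only. For Lmna it was Pcbp4 (distance 0.0619, log2 fold change -0.80), Gm21982 (0.0699, -0.77) and Arpc1b (0.0722, -0.80). Many genes had similar profiles: within a distance of 0.5 lay 73 genes for Lmnb1, 62 for Hmgb2, 178 for Hmga2 and 969 for Lmna.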

How the data were processed

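RNA from 3 control and 3 senescent MAF samples was made into stranded poly(A) libraries with 200 ng of RNA as input. As the study's methods state, reads were mapped to mm10 with STAR and the authors counted them per gene with Subread in the MAPRSeq pipeline. The deposited values are raw counts per gene, not normalised, and a length for each gene. The strand setting and the treatment of reads that match several places are not given in the sources used here, which bears on genes with close copies or overlapping neighbours.

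Counts were analysed with edgeR 4.0.16 (R 4.3.3, limma 3.58.1): filterByExpr, TMM scaling and the robust quasi-likelihood test with group as the only term. Levels between genes were compared as RPKM, TMM-scaled CPM divided by the deposited length. Scripts were tested on simulated data. Ratios of counts of 2 members within a library were tested by an exact two-sided permutation test. GC content and 3′ untranslated regions came from the longest transcripts of GENCODE vM21, and GC was known for 99.1% of tested genes. Library totals differed by less than a factor of 2, and the lowest member count in any library was 333. For the members with the lowest counts, Hmgb2 and Lmnb1 in senescent cells, counting error was of the order of the spread between libraries. Nothing says whether the replicates came from separate animals or separate cultures, and p-values measure the spread between these samples.

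All 10 members were described in full. From each of the 8 lists of related genes the up to 3 genes called higher and 3 called lower with the smallest p were named. Also named were any listed gene below the filter, the rows named as copies of members, and the 3 nearest profiles of Lmnb1, Hmgb2, Hmga2 and Lmna. One result under this rule is not reported here. The members and lists were chosen with earlier results of these data known. Replicate numbers were shared between the groups, but deviations from the group means of same-numbered libraries correlated at -0.374, 0.293 and -0.263, so the numbers were not taken as pairs. Alternatives were RLE scaling, library size alone, other filters, edgeR's exact test, DESeq2 1.42.0, a replicate block, the study's call rule, leaving out each library and, chosen after seeing the data, removal of the GC trend.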

Additional observations from a re-analysis of the deposited data

How the results depend on the processing

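All 10 members kept their direction under the 14 alternatives in scaling, filter, test, block, GC trend and left-out library, and 9 of the 10 kept their call in each. The exception was Lmna, at -0.76 with an adjusted p of 0.0715 by edgeR when only genes without any count were removed, which raised the genes tested to 29776. Leaving out each library gave 8 members lower and 2 higher every time. The rule in the study's methods, of an unadjusted p under 0.05 and a fold over 2, called 6 members lower, without Lmna and Emd, and 2 higher. Over all genes it called 2166 genes lower and 3134 higher, against 6005 and 6360 by adjusted p. Scaling by library size alone moved the median log2 fold change of all genes to 0.09 and RLE scaling to 0.03. With a replicate block, which the numbering does not warrant, 5660 genes were lower and 5964 higher, with 8 and 2 of the members, and no call of a member was changed. The ratios between members kept their direction in each left-out library, with the blocked exact p at 0.25, the smallest that 3 pairs allow, and 0.5 for Lbr to Lmna. Without senescent replicate 3 the log2 difference of Hmga2 to Hmga1 was 0.65, and over all left-out libraries it ran from 0.65 to 1.21. With 3 libraries a group no ratio could pass an exact test at 0.05. Gene counts do not separate isoforms, and RNA levels do not give protein levels.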
